A study of Homo sapiens with 4 samples.

Results

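Splicing factors and hnRNP proteins are described here as they were measured in K562, a human cell line established from a chronic myelogenous leukaemia. The genes were taken by name, as every entry of the deposited signal table whose symbol begins with HNRNP or HNRP (hnRNP proteins), SRSF or SFRS (SR proteins and genes once named with them), SNRP (proteins of the small nuclear ribonucleoproteins, snRNPs) or SF3A and SF3B (the SF3 complexes). This gave 78 of 34692 entries, with 34 hnRNP, 22 SR protein, 13 snRNP and 9 SF3 entries, and they name 69 different current genes. The study used stable transductants that over-express ZNF16, a zinc finger gene, and stable control transductants, with 2 Illumina HumanHT-12 arrays in each group, and asked how ZNF16 affects gene expression. All 4 samples share the K562 background and the medium, and the labels give neither the vector nor its promoter, nor whether the transductants are clones. Nothing in them says that the 2 samples of a group were derived separately, so the p-values reflect how far these 4 samples scatter, and that scatter may be technical. In bulk RNA, fewer cells of a type and less RNA per cell cannot be told apart.

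A newly made transcript is coated by hnRNP proteins, an abundant set of RNA-binding proteins that package it and often keep an exon from being used. SR proteins bind exons through RNA recognition motifs and draw the splicing machinery to nearby splice sites through a domain rich in arginine and serine. The snRNP proteins clothe the small nuclear RNAs of the spliceosome, and SF3A and SF3B are subcomplexes of the U2 snRNP that hold the branch point. SF3B1, SRSF2 and other genes of this machinery are known for recurrent mutations in myeloid disease.

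The arrays were similar in brightness, with mean deposited signals of 956.1 and 991.8 in ZNF16 cells and 998.2 and 971.9 in control cells, and between 9913 and 10762 entries were detected on an array (detection p-value under 0.05). The entry for ZNF16 itself was detected on 0 arrays (detection p-values from 0.343 to 0.693), so it did not check the labels. All 10 markers chosen for K562, among them the fetal globin genes and GATA1, were detected on all 4 arrays. Of 16 markers of T cells, B cells, monocytes, fibroblasts and epithelial cells, 2 (CD3D and EPCAM) were detected on all 4. Control replicate 2 stood apart. The SD of log2 differences over the 10868 tested entries came to 0.341 for the pair of ZNF16 arrays and 0.520 for the pair of controls. Between ZNF16 replicates 1 and 2 and control replicate 1 it was 0.413 and 0.378, and with control replicate 2 it was 0.610 and 0.525. Small RNAs chosen as signs of RNA quality were lower in fitted value in 6 of 6 tested cases, against 5300 of 10868 entries. Their median log2 difference was −0.53, and control replicate 2 exceeded control replicate 1 in them by a median of 0.30. RN7SK, counted here, passed the detection filter through its 2 control arrays alone. The part of these small RNAs in the results below was not tested.

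HNRNPAB had a higher signal with ZNF16 than any other hnRNP entry had in proportion to its controls. The gene encodes an A/B-type hnRNP with a pair of RNA recognition motifs, known as a partner of the mRNA-editing enzyme APOBEC1 and as a factor that binds both RNA and single-stranded DNA. As deposited, its signal was 9169 and 8839 on ZNF16 arrays, set against 3323 and 3830 on controls. Both ZNF16 arrays thus lay well above both controls before any correction, and the ratio of the group means was 2.52.

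After background correction and quantile normalisation, HNRNPAB averaged 13.06 ± 0.07 in ZNF16 cells and 11.66 ± 0.29 in control cells (log2 signal, SD, n = 2 each). The log2 difference, ZNF16 minus control, was 1.41 ± 0.24 (SE), a 2.65-fold difference, with a limma adjusted p of 0.243 over the 10868 tested entries. The 4 differences between a ZNF16 and a control array ran from 1.15 to 1.66, so each exceeded 2-fold. By size it was 12th among all entries with a higher value in ZNF16 cells, and by p-value it was 29th in either direction. HNRNPAB had been picked out with its value already known, so these figures describe it and are not independent evidence of a change.

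In this fit neither HNRNPAB nor any other entry passed the test. Among the 63 tested splicing entries limma called 0 higher and 0 lower at an adjusted p under 0.05, as it did over all entries (0% in each direction). Without adjustment, at p under 0.05, 3 of the 63 were higher and 0 lower, against 3.68% higher and 4.00% lower over all tested entries. The 3 were HNRNPAB, HNRNPA1 and HNRNPH1. HNRNPAB was also the only one of the 63 to differ by at least 2-fold in all 4 pairs of arrays, a size reached by 0.166% of all entries in the higher direction and 0.313% in the lower. With 2 arrays against 2, an exact permutation test of any single gene cannot go below a two-sided p of 0.333.

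**Figure D1:**
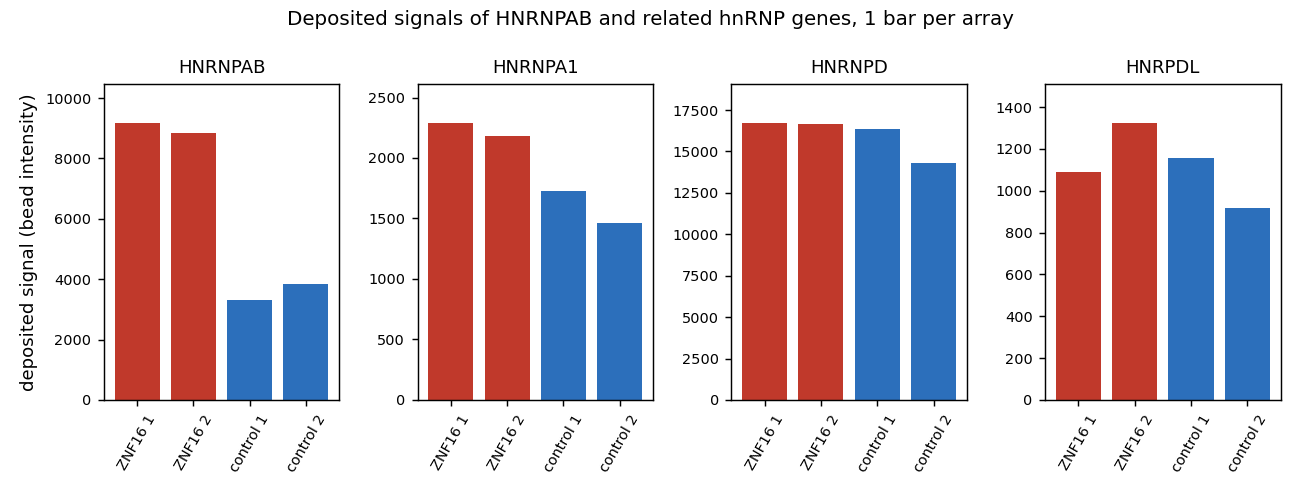
Deposited signal (bead intensity, linear axis from 0, own scale in each panel) of HNRNPAB and 3 other hnRNP genes, 1 bar for each array, ZNF16 arrays red and control arrays blue. The HNRNPAB bars stand at 9169 and 8839 in ZNF16 cells, against 3323 and 3830 in controls, while the HNRNPD bars lie between 14284 and 16708 on all 4 arrays.

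The HNRNPAB value stayed near this size under most processing. It was 1.30 with no background correction, 1.25 with median scaling, 1.48 in the authors' processed values and between 1.20 and 1.61 with any 1 array left out. The largest value, 2.15, came with negative-control statistics inferred from all entries in place of single-probe entries. Over the alternatives the adjusted p lay between 0.0139 and 1.

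The promoter of HNRNPAB is printed because its signal differed most, and that of HNRNPD because HNRNPD is a closely related A/B-type gene with nearly equal signals in both groups. The windows are the 250 bases before the start of the gene in RefSeq (GRCh38.p14). That of HNRNPAB covers chr5:178204283-178204532 on the plus strand, and that of HNRNPD covers chr4:82373992-82374241 on the minus strand. Capitals mark matches to CCAAT, the motif bound by NF-Y, and to TATAAA, the TATA box, searched on both strands.
HNRNPAB: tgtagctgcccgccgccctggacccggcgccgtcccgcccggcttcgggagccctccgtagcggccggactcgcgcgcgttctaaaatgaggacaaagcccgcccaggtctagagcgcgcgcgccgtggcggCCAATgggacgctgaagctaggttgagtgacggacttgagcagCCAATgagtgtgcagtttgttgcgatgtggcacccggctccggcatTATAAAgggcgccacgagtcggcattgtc
HNRNPD: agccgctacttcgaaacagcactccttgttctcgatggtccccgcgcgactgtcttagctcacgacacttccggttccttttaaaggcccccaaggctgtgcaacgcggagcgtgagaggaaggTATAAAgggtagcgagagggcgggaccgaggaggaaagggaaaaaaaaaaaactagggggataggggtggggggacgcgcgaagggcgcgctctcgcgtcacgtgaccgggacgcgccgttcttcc

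The HNRNPAB window held the CCAAT motif at bases 133 to 137 and 176 to 180, and the TATA box at bases 222 to 227. The HNRNPD window held the TATA box at bases 125 to 130 and no match to the other motif. Of 35116 RefSeq windows of this length, 32.0% held the CCAAT motif and 10.7% held the TATA box on either strand, and none of the marked matches overlapped another. A window with at least 2 CCAAT motifs and 1 TATA box, a pair of features chosen after the HNRNPAB window was seen, occurred in 1.02% of windows. Of the member genes, HNRNPAB, HNRNPC and SRSF3 had such a window. Windows were found for 21 hnRNP genes, and 19 of their 32 windows (59.4%) held the CCAAT motif. The GC box, GGGCGG, stood in 22 of the 32, against 42.6% of all windows, and CACGTG, the E-box bound by MYC, in 7 (21.9%), against 6.34%. The TATA box stood in 3 of the 32 (9.38%), against 10.7%. Over the 86 windows of all member genes the CCAAT motif stood in 33.7%, against 32.0% of all windows. Matches are a description of these letters, and the windows of 1 gene can overlap.

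HNRNPAB lies on chromosome 5, as does HNRNPH1. Only tested entries listed under a current RefSeq symbol were placed in order, so entries under older symbols are left out here. Of the entries placed, 1, COL23A1, lay between HNRNPAB and HNRNPH1. Among the 20 nearest entries so placed, 10 on each side of HNRNPAB, 5 had both ZNF16 arrays above both controls and 6 had both below. Over all tested entries, 21.0% were separated upward and 19.0% downward. The median log2 difference of the 20 was −0.02, and their values ran from −0.38 to 0.60. These neighbours thus lay on both sides of 0.

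The other hnRNP entries mostly had small positive values. Among the 27 tested apart from HNRNPAB, 23 were above 0 in fitted log2 difference and 4 below, and the median was 0.17, against a median of 0.01 and 51.2% above 0 over all tested entries. HNRNPAB exceeded this median by 1.23 and the next largest hnRNP value by 0.75. With HNRNPAB counted, both ZNF16 arrays lay above both controls in 13 of 28 hnRNP entries and below both in 0, where 21.0% of all entries were separated upward and 19.0% downward. None of the 27 was 1.5-fold apart in all 4 pairs of arrays. With median scaling, all tested entries had a median of −0.19, the hnRNP median of 0.18 became −0.0084, and 14 of 28 hnRNP entries were above 0, against 24 of 28 with quantile normalisation. Relative to all entries the hnRNP median was 0.18 there and 0.17 with quantile normalisation.

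**Figure D2:**
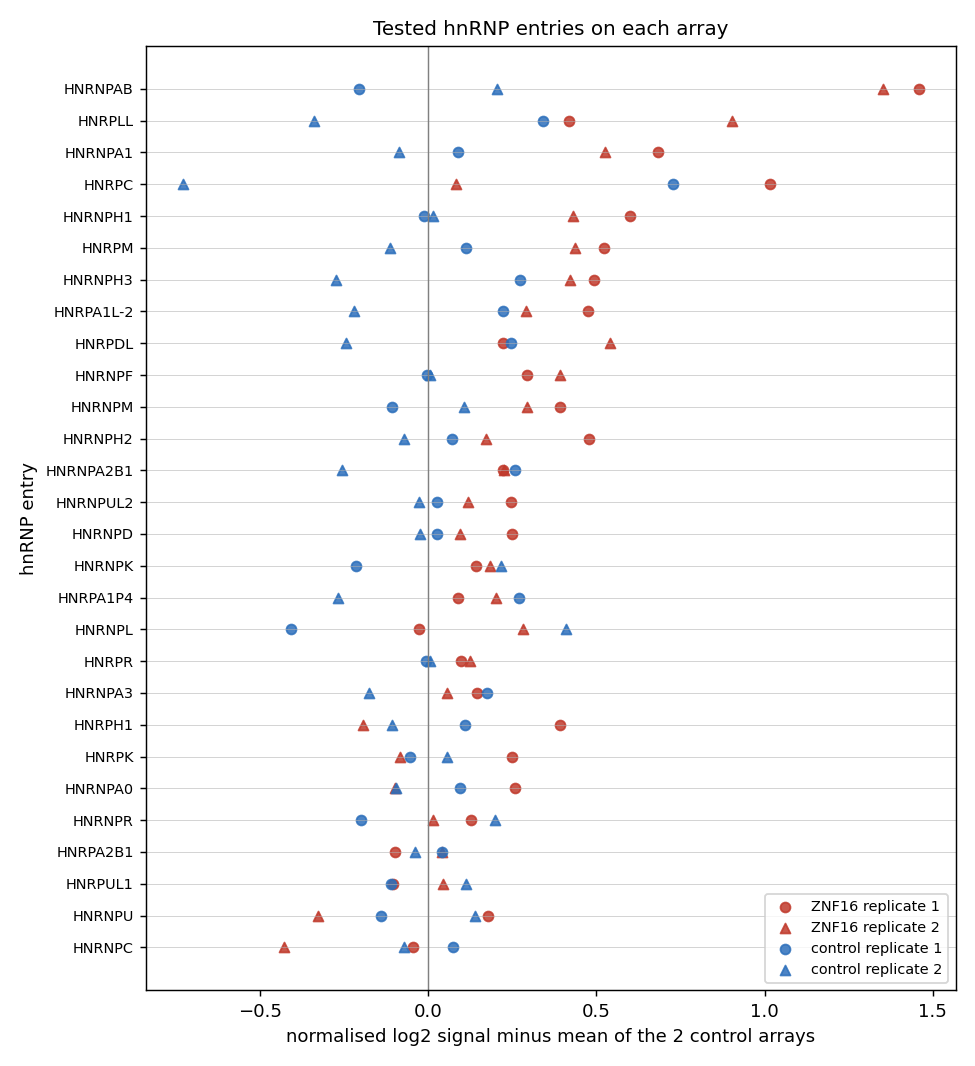
Normalised log2 signal of each tested hnRNP entry on each array, minus the mean of its 2 control arrays, with entries ordered by their fitted difference (ZNF16 arrays red, control arrays blue, circles for replicate 1 and triangles for replicate 2). In 13 of 28 entries both red marks lie to the right of both blue marks, and HNRNPAB shows the widest gap, 1.15 on the log2 scale.

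HNRNPA1, a shuttling repressor of exon inclusion, had normalised log2 signals of 10.92 and 10.77 with ZNF16, against 10.33 and 10.15 in controls. The groups did not overlap, and the log2 difference was 0.60 ± 0.22 (SE; limma adjusted p = 0.612). HNRNPH1, which binds runs of G in transcripts, had 12.11 and 11.94 in ZNF16 cells and 11.50 and 11.52 in control cells. Its controls nearly coincided, and its log2 difference was 0.52 ± 0.21 (SE; limma adjusted p = 0.646).

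HNRPLL (now HNRNPLL), the regulator of CD45 splicing in lymphocytes, had 8.07 and 8.55 on ZNF16 arrays, set against 7.99 and 7.31 on controls. Its log2 difference of 0.66 ± 0.31 (SE; limma adjusted p = 0.655) rested largely on the low value in control replicate 2, and it was 0.32 without that array. With no background correction it was 0.26. HNRPM, an entry of the gene HNRNPM that takes part in exon skipping, had 12.67 and 12.59 with ZNF16, against 12.26 and 12.04 in controls, a log2 difference of 0.48 ± 0.22 (SE; limma adjusted p = 0.655).

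The nearest relatives of HNRNPAB by name and domain order differed less. HNRNPD, also called AUF1 and known for binding AU-rich elements of unstable mRNAs, had 14.10 and 13.95 in ZNF16 cells and 13.88 and 13.83 in control cells. Its difference was 0.17 ± 0.21 (SE; limma adjusted p = 0.845), and −0.052 with median scaling. HNRPDL (now HNRNPDL), the D-like relative, had 9.54 and 9.86 on ZNF16 arrays, set against 9.56 and 9.07 on controls. These groups overlapped, and the log2 difference was 0.38 ± 0.26 (SE; limma adjusted p = 0.725).

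Core hnRNP proteins of the classical complexes had values on both sides of 0. HNRNPC, which binds runs of U, had 11.41 and 11.03 with ZNF16, against 11.53 and 11.38 in controls. It was the lowest of the tested hnRNP entries at −0.24 ± 0.24 (SE; limma adjusted p = 0.811), and its groups overlapped. HNRNPA2B1, a reader of methylated adenosine and a sorter of transport mRNAs, had 10.27 and 10.28 in ZNF16 cells and 10.31 and 9.80 in control cells. Its log2 difference was 0.22 ± 0.25 (SE; limma adjusted p = 0.827), and −0.033 without control replicate 2.

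The table listed 9 hnRNP genes as 2 entries, one under the HNRNP symbol and one under the older HNRP symbol, and these were named for that reason after the values were seen. The 2 entries rest on separate deposited values, so they give a check within the arrays, though a weak one where an entry is dim. In 6 genes both entries were tested, and 4 of these had fitted values of the same sign. The signs differed in HNRNPC and in HNRNPA2B1, which had 0.22 under the newer symbol and −0.03 in its brighter entry under the older one. HNRNPM was the gene with both entries separated in the same direction, at 0.34 and 0.48. HNRNPH1 had 0.52 under the newer symbol and 0.10 under the older one, where the groups overlapped. That older entry was dim, with signals of 524 to 592, and was not detected on control replicate 2 (detection p-value 0.068). HNRNPC had −0.24 and 0.55, the widest gap, and the groups of its second entry overlapped (8.67 and 7.74 in ZNF16 cells, against 8.39 and 6.93 in controls). That second entry was dim too, with a signal of 495 on control replicate 2, where the inferred mean of the negative controls was 393.1. HNRNPAB had 1 entry, read as a single probe from its detection p-values, so that its difference could not be checked in this way. Counted by gene, 20 of 22 tested hnRNP genes were above 0, with the same median of 0.18. The pseudogene entries HNRPA1L-2 (0.38) and HNRPA1P4 (0.15) and the genes they resemble may share signal, and leaving pseudogenes out gave a median of 0.18 with 22 of 26 entries above 0.

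**Figure D3:**
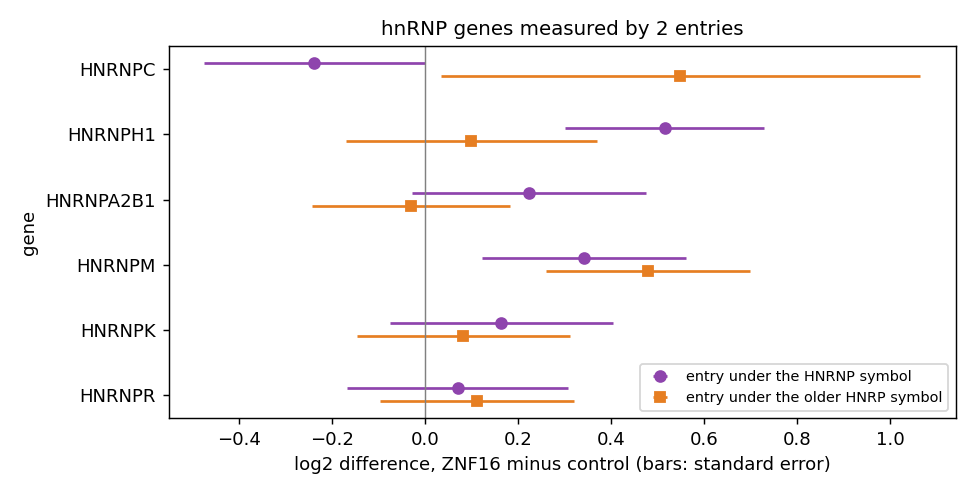
Fitted log2 difference, ZNF16 minus control, with its standard error, for the 6 hnRNP genes whose 2 entries were both tested (circles for the HNRNP symbol, squares for the older HNRP symbol). Entries of HNRNPR, HNRNPK and HNRNPM lie within 0.14 of each other, and those of HNRNPC lie 0.79 apart on opposite sides of 0.

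Of the SR protein entries, 18 of 22 were tested, and their median log2 difference was 0.09, beside an hnRNP median of 0.18. Both ZNF16 arrays lay above both controls in 7 of them (38.9%) and below both in 2 (11.1%), against 21.0% and 19.0% of all entries. Under median scaling the median was −0.10, which is 0.09 above the median of all entries there, and without ZNF16 replicate 1 it was −0.037. The 9 tested classical SR proteins, those now named SRSF, were all above 0 with quantile normalisation, from 0.02 to 0.39. This count depended on the controls, since the ZNF16 mean exceeded control replicate 1 in 6 of the 9 and control replicate 2 in 8. Over all 10868 tested entries it exceeded them in 5481 and 5606. SFRS1 was at −0.13 under median scaling and −0.29 without control replicate 2. SFRS3, also counted here, passed the detection filter through its 2 ZNF16 arrays alone. The other 9 SFRS-named genes ran from −0.56 to 0.44. No difference between these groups of genes was tested.

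SFRS7 (now SRSF7), a classical SR protein with a zinc knuckle that also guides 3′ end choice, had 10.87 and 10.86 on ZNF16 arrays, set against 10.55 and 10.41 on controls. The ZNF16 arrays nearly coincided, and the log2 difference was 0.39 ± 0.21 (SE; limma adjusted p = 0.678). SFRS4 (now SRSF4) had 12.48 and 12.62 with ZNF16, against 12.13 and 12.47 in controls, a difference of 0.25 ± 0.23 (SE; limma adjusted p = 0.791).

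SFRS1 (now SRSF1), the founding SR protein and a known oncoprotein, had 12.53 and 12.04 in ZNF16 cells and 12.58 and 11.94 in control cells. The spread within each group was far larger than the difference of 0.02 ± 0.30 (SE; limma adjusted p = 0.985). SFRS3 (now SRSF3), the smallest SR protein, was above background on the 2 ZNF16 arrays and on 0 of 2 controls, and its entry combines several probes. Its values were 9.56 and 8.88 in ZNF16 cells, against 8.95 and 8.95 in controls, so the groups overlapped. The log2 difference was 0.27 ± 0.28 (SE; limma adjusted p = 0.819), 0.02 with median scaling and −0.073 without ZNF16 replicate 1.

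The 4 tested SR family entries below 0 were all among the other SFRS-named genes, where 5 of 9 were above 0. In these 9, both ZNF16 arrays lay above both controls in 4 and below both in 2. In the 9 classical SR proteins the counts were 3 and 0. Of all entries, 21.0% were separated upward and 19.0% downward. SFRS16 (now CLASRP), a partner of the SR protein kinase CLK4, was detected on 1 ZNF16 array and 2 control arrays. It had 6.57 and 6.88 on ZNF16 arrays, set against 6.94 and 7.63 on controls, a log2 difference of −0.56 ± 0.29 (SE; limma adjusted p = 0.670) that was −0.21 without control replicate 2 and −0.19 with no background correction. SFRS18 (now PNISR), an SR-rich partner of pinin, had 10.16 and 10.49 with ZNF16, against 10.70 and 10.72 in controls. The groups did not overlap, and the difference was −0.39 ± 0.23 (SE; limma adjusted p = 0.685). SFRS2IP (now SCAF11) had 9.34 and 9.28 in ZNF16 cells and 9.22 and 8.52 in control cells, a difference of 0.44 ± 0.28 (SE; limma adjusted p = 0.711) that came to 0.09 without control replicate 2.

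Of the snRNP entries, 9 of 13 were tested, with 6 above 0, 3 below and a median of 0.18. In 4 of them (44.4%) both ZNF16 arrays lay above both controls, and in 0 below, against 21.0% and 19.0% of all entries. The median was 0.12 with no background correction and −0.066 under median scaling, where it stood 0.12 above the median of all entries. The 9 values ran from −0.18 to 0.30.

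SNRPB, which encodes the Sm proteins B and B′ of the ring shared by most spliceosomal snRNPs, had 13.07 and 12.94 on ZNF16 arrays, set against 12.87 and 12.54 on controls. Its log2 difference was 0.30 ± 0.23 (SE; limma adjusted p = 0.748), and 0.13 without control replicate 2. SNRPF, another protein of the Sm ring, had 13.41 and 13.36 with ZNF16, against 13.09 and 13.26 in controls, a difference of 0.21. The U2 snRNP proteins SNRPB2 and SNRPA1, which form a pair on U2 RNA, had 0.21 and 0.19. SNRPB2 had 11.65 and 11.59 in ZNF16 cells and 11.37 and 11.45 in control cells, and SNRPA1 had 12.63 and 12.72 in ZNF16 cells, against 12.45 and 12.52 in controls. These 4 entries were the separated ones, with standard errors of 0.21 to 0.23. SNRPA, the U1 A protein, had −0.18, and 0.11 without control replicate 2.

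The snRNP entries not tested were SNRP70, SNRPD2, SNRPE and SNRPN. SNRPD2, a Sm ring protein, was bright, with signals of 14024 and 17919 on ZNF16 arrays, set against 17118 and 16467 on controls. Its entry was read as combining several probes. The detection p-values lay between 0.244 and 0.382, so the filter left it out. SNRPN, an imprinted gene whose protein stands in for SNRPB in brain, had detection p-values of 0.108 and 0.612 with ZNF16, against 0.439 and 0.752 in controls.

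Of the SF3 entries, 8 of 9 were tested, with 3 above 0, 5 below and a median of −0.08. The family turned on control replicate 2, which was the highest of the 4 arrays in 5 of 8 entries and the lowest in 2, where it was the highest in 32.1% and the lowest in 35.4% of all entries. Without that array the SF3 median was 0.10, and without control replicate 1 it was −0.28.

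SF3B3, a scaffold of the SF3B core, had 10.11 and 10.00 in ZNF16 cells and 9.74 and 9.07 in control cells. Its log2 difference was 0.65 ± 0.28 (SE; limma adjusted p = 0.655), the largest of the family, and 0.31 without control replicate 2. SF3B1, which clamps the branch point and is recurrently mutated in myelodysplastic syndromes, had 9.22 and 9.47 on ZNF16 arrays, set against 9.50 and 9.55 on controls. It was the SF3 entry with both ZNF16 arrays below both controls, by a difference of −0.18 ± 0.22 (SE; limma adjusted p = 0.842). SF3A3, a subunit of SF3A, had 13.96 and 13.73 with ZNF16, against 13.87 and 13.06 in controls, a difference of 0.38 that became −0.027 without control replicate 2. SF3B2 and SF3B5 had −0.22 and −0.14, and 0.12 and 0.08 without that array.

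**Figure D4:**
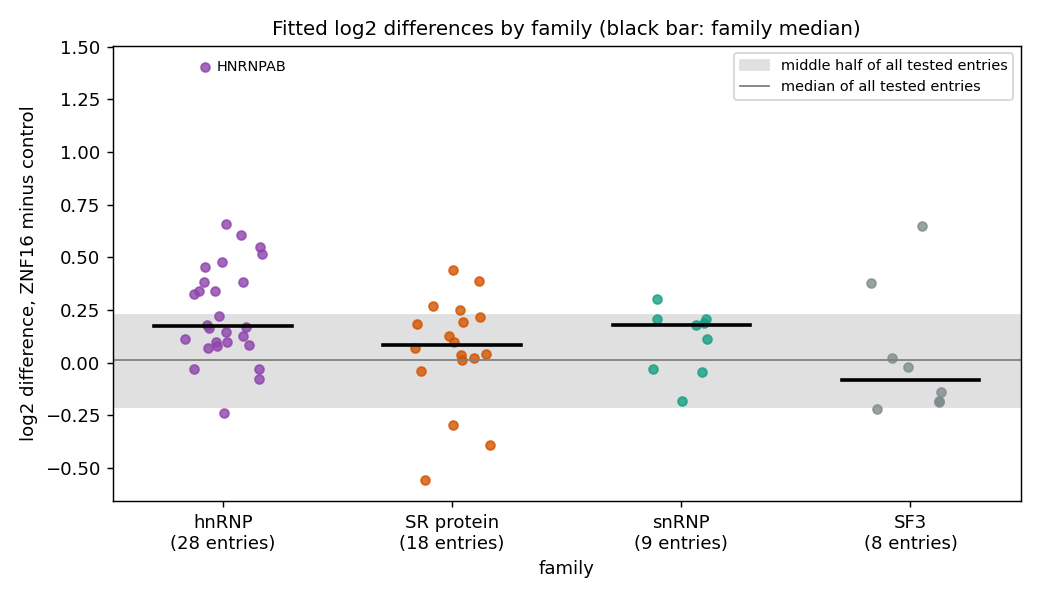
Fitted log2 difference (ZNF16 minus control, quantile normalised) of each tested entry by family, with the family median as a black bar, over the range that holds the middle 50% of all tested entries (grey band). HNRNPAB stands alone at 1.41, and the family medians lie between −0.08 and 0.18, inside the band.

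The other splicing genes, taken by function in 8 lists, numbered 159 entries, of which 122 were tested. At an adjusted p under 0.05 limma called 0 of them in either direction, and without adjustment 3 were higher and 0 lower, where 3.68% of all tested entries were higher and 4.00% lower. Their median log2 difference was 0.12. Both ZNF16 arrays lay above both controls in 39 (32.0%) and below both in 11 (9.02%), against 21.0% and 19.0% of all entries. By list, the medians were 0.28 for SR protein kinases and their partners, 0.26 for U1, U2AF and branch point factors, 0.21 for the SMN complex and snRNP assembly, 0.15 for the tri-snRNP and 0.14 for other splicing regulators. They were 0.09 for the LSM ring, 0.07 for exon junction factors and −0.09 for the Prp19 complex and step factors. Against control replicate 1 alone the LSM and exon junction medians were 0.07 and 0.23, and against control replicate 2 alone −0.08 and −0.11. The other lists kept their sign. Over the 122, the ZNF16 mean exceeded control replicate 1 in 90 and control replicate 2 in 66. Over all 10868 tested entries these counts were 5481 and 5606. The lists held from 6 to 33 tested entries. The median of 0.28 rested on 6 entries, and it was 0.11 over those detected on all 4 arrays and 0.05 without control replicate 2. In the SMN list, whose proteins load the Sm ring onto small nuclear RNAs, 6 of 10 entries were separated upward and 1 downward, beside 21.0% and 19.0% of all entries. This list was singled out after the counts were seen.

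The smallest p-values among these genes belonged to PRPF38B, SYNCRIP and GEMIN5. PRPF38B, a spliceosomal protein rich in arginine and serine, had 8.64 and 8.23 in ZNF16 cells and 7.45 and 7.23 in control cells. Its log2 difference of 1.10 ± 0.24 (SE; limma adjusted p = 0.385) was smaller than that of HNRNPAB, and uncorrected for background it came to 0.43. Where the negative controls were inferred from all entries, it came to 0.10. SYNCRIP, also known as hnRNP Q, had 10.82 and 10.58 on ZNF16 arrays, set against 10.07 and 9.99 on controls, a difference of 0.66 ± 0.22 (SE; limma adjusted p = 0.580). GEMIN5, which recognises small nuclear RNAs for the SMN complex, had 0.64 ± 0.22 (SE; limma adjusted p = 0.585). Uncorrected for background it was 0.28.

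PTBP1, the polypyrimidine tract binding protein once called hnRNP I, had 14.60 and 14.50 with ZNF16, against 14.19 and 13.80 in controls, a log2 difference of 0.56 ± 0.24 (SE; limma adjusted p = 0.650). MAGOH, of the exon junction complex, had 0.58 and PUF60, a partner of U2AF, 0.72. In these 3 the value was smaller without control replicate 2, at 0.36, 0.36 and 0.27. SNRNP70 stood in the table beside the older symbol SNRP70, and TRA2B was measured as SFRS10, at 0.01.

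**Figure D5:**
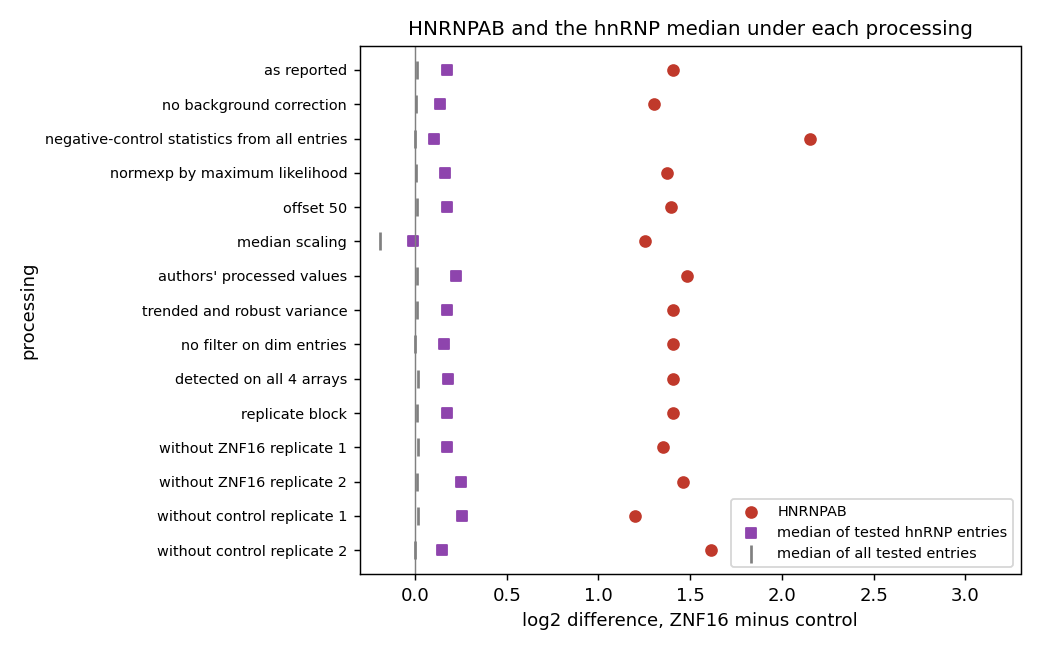
Log2 difference, ZNF16 minus control, of HNRNPAB (red circles), the median of the tested hnRNP entries (purple squares) and the median of all tested entries (grey ticks) under each processing. HNRNPAB ran from 1.20 to 2.15, and the hnRNP median stayed to the right of the median of all entries, also under median scaling, where it was −0.0084 against −0.19.

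In all, 15 of the 78 entries were not tested, since 12 were detected on no array and 3 on a single array. Of the 15, 11 were read as combining several probes, and the rule that gave their detection p-values is not known. Besides the snRNP entries above, they were HNRNPA1L2, HNRNPA3P1, HNRNPCL1, HNRNPUL1, HNRPH3 and HNRPUL2 of the hnRNP family, SFRS11, SFRS12, SFRS13A and SFRS13B of the SR family, and SF3A1. Of the 63 tested, 60 were detected on all 4 arrays, 2 on 3 and 1 on 2. Over the 63 the median log2 difference was 0.13. Of them, 25 (39.7%) were separated upward and 3 (4.76%) downward, against 21.0% and 19.0% of all entries. The ZNF16 mean exceeded control replicate 1 in 46 of the 63 and control replicate 2 in 43, against 5481 and 5606 of 10868 entries.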

How the data were processed

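The deposited signals are linear bead intensity values for each gene symbol. The submitters' processing notes name GenomeStudio 2010.2. The deposited detection p-values come with each signal, per the file headers. The authors' processed intensity values, background-subtracted and scaled by array as judged from the numbers, served as an alternative, raised to at least 16 before log2. The sources used here give neither the rule for combining probes nor a genome build. An entry was read as single-probe where its 4 detection p-values lay on steps of 1 in 770 (within 0.002 of a step), which held for 27095 entries.

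Signals were corrected with limma 3.58.1 (R 4.3.3) by normexp, with negative-control statistics inferred from the single-probe entries, an offset of 16, quantile normalisation and log2. Entries detected (p under 0.05) on at least 2 of 4 arrays were tested with lmFit and eBayes, two-sided, adjusted by Benjamini-Hochberg over all 10868 at a threshold of 0.05, and the scripts were tested on simulated data. Families are described by counts and medians without a test. The number of arrays limits the precision.

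The text names HNRNPAB, the 5 members of each family with the smallest p, core members, and the 6 other splicing genes with the smallest p. The members and lists were chosen with earlier results of these data known. All 78 symbols matched a current RefSeq gene (GRCh38.p14), 41 by symbol and 37 by an older symbol. Alternatives were other background corrections, offsets, scalings, filters and variance models, a replicate block, and leaving out each array.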

Additional observations from a re-analysis of the deposited data

How the results depend on the processing

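HNRNPAB kept its direction under all 14 alternatives, and of 432 values for 31 other named genes under these alternatives, 421 kept direction and side of the threshold. The count of entries past the threshold, 0 as reported, was 3 with normexp by maximum likelihood, 3 with an offset of 50, 3 with a trended and robust variance, 7 with median scaling and 0 to 2 with 1 array left out. The replicate numbers are shared by the groups, but no label ties them to a batch, and the deviations of same-numbered arrays correlated at 0.193 over tested entries. With the replicate block 128 entries passed, among them HNRNPAB (1.41, limma adjusted p = 0.0139) and PRPF38B (1.10, 0.0455). With negative-control statistics from all entries, HNRNPAB minus the median of the other hnRNP genes was 2.05, and the hnRNP and snRNP medians were 0.11 and 0.054. Median scaling gave −0.0084 for hnRNP, −0.10 for SR proteins, −0.066 for snRNP, −0.26 for SF3, −0.052 for HNRNPD and −0.13 for SFRS1. The snRNP median was 0.12 with no background correction and 0.11 with no filter. With 1 array left out, HNRNPAB minus the other hnRNP genes ranged from 0.97 to 1.47, the hnRNP median from 0.15 to 0.26, the SR protein median from −0.037 to 0.17, the snRNP median from 0.11 to 0.17 and the SF3 median from −0.28 to 0.10. Sign changes came for SFRS1 (−0.29 to 0.34), SFRS3 (−0.073 to 0.61), SNRPA (−0.47 to 0.11), SF3A3 (−0.027 to 0.78), SF3B2 (−0.56 to 0.12), SF3B5 (−0.36 to 0.0785) and HNRNPA2B1 (−0.033 to 0.48). The cause of these shifts was not tested. One value for each current gene, and leaving out pseudogene entries, both chosen after seeing the data, gave 0.18 for the hnRNP median. Single entries also moved with the negative-control statistics from all entries, HNRNPAB to 2.15, PRPF38B to 0.10, HNRPLL to 0.06 and SFRS16 to −0.03.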
